A study of Mus musculus with 10 samples.

Results

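The E protein genes Tcf3, Tcf4 and Tcf12 and the Id genes Id1, Id2 and Id3 were followed across early B cell development with and without Mta2. They were taken by name, 6 of the 23420 genes in the files, and all 6 were among the 14161 genes tested. The fourth Id gene, Id4, did not pass the filter on low counts. RNA was sequenced from 10 libraries of sorted C57BL/6 mouse bone marrow cells, and the series asks what Mta2, which belongs to the histone deacetylase complex NuRD, does as B cells develop. The groups were small pre-B cells labelled Mta2_VavKO (3 libraries), small pre-B control cells (3), pro-B cells labelled Mta2_VavKO (2) and pro-B control cells (2). The label names Vav, whose promoter is active across blood cells, so the knockout is not limited to B cells, and the genotype of the controls and the age of the mice are not stated. Pro-B cells were sorted as B220+, IgM- and CD43+, and small pre-B cells as B220+, IgM- and CD43- with a gate on size. The labels do not tie libraries to animals, litters or days, so a replicate is a library and p-values measure the spread between these libraries.

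E proteins are helix-loop-helix transcription factors that bind DNA as dimers at the E-box, whose core is written CANNTG. Id proteins carry the dimerization domain but no DNA-binding region, so an E protein paired with an Id protein does not bind. In the bone marrow, products of Tcf3 switch on the B lineage program and the recombinase genes, Tcf4 is the E protein that plasmacytoid dendritic cells depend on, and Id2 is needed by natural killer and innate lymphoid cells, while Id3 responds to signals from antigen receptors.

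The 250 bases before RefSeq's start of Tcf3, Id2 and Id3 are printed because these are the E protein gene that was most raised, the Id gene that was most lowered and the Id gene that was raised between the pro-B and the small pre-B gate. The windows are chr10:80433636-80433885 on the minus strand for Tcf3, chr12:25096093-25096342 on the minus strand for Id2 and chr4:136143572-136143821 on the plus strand for Id3 (RefSeq, GRCm38.p6, the build also called mm10). RefSeq's start of Tcf3 lies inside the gene as the count files place it, so that the last 18 bases of its window are within that gene, while the Id2 and Id3 windows lie outside theirs. The windows are written 5′ to 3′ with CANNTG matches in capitals.
Tcf3: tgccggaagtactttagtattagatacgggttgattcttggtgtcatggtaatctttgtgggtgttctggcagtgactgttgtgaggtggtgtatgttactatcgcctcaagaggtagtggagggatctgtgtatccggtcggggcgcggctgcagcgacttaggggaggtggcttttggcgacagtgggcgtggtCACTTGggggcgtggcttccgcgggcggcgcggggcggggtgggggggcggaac
Id2: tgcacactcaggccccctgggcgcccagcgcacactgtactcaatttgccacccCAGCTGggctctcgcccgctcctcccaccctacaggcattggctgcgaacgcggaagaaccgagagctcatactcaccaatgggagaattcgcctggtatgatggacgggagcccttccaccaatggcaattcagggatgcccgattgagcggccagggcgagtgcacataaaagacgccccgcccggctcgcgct
Id3: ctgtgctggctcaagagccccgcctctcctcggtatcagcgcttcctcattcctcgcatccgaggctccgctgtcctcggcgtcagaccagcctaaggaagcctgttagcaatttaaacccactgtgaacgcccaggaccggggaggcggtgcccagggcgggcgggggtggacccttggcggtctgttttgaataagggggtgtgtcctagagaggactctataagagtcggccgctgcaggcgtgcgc
The Tcf3 window held 1 match, CACTTG, which began 54 bases before RefSeq's start, and the Id2 window held 1 match, CAGCTG, which began 196 bases before it. The Id3 window held none. CANNTG reads the same way on either strand, and 66.2% of 32851 RefSeq windows of 250 bases held at least 1 match. CAGGTG, an E-box that E proteins bind well, was in none of the 3 windows and in 17.2% of all windows on either strand. GCGTGGGCG, the motif of EGR factors, was in none of the 3 and in 0.536% of all windows on either strand. These are matches of letters and no measure of binding.

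In mm10 coordinates the genes lie at chr10:80409165-80433653 on the minus strand (Tcf3), chr18:69344492-69687967 on the plus strand (Tcf4), chr9:71844252-72111819 on the minus strand (Tcf12), chr2:152736274-152737410 on the plus strand (Id1), chr12:25093799-25096092 on the minus strand (Id2) and chr4:136143822-136145392 on the plus strand (Id3). No exon of any of the 6 overlapped an exon of another gene in the files. The counts are per gene and do not separate the isoforms that each E protein gene makes.

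The libraries held 17805507 to 52127004 counts over genes. Values are CPM, read counts scaled to library size with trimmed mean of M values (TMM) factors, in which 3 counts correspond to 0.054 to 0.173 CPM. Mta2 itself had 199, 179 and 198 CPM in small pre-B Mta2 KO libraries against 438, 246 and 412 CPM in small pre-B control libraries, and 162 and 166 CPM in pro-B Mta2 KO libraries against 436 and 375 CPM in pro-B control libraries. Small pre-B control 2 was the control library with the lowest Mta2. Small pre-B Mta2 KO libraries 1 and 2 held Xist RNA at 2518 and 2941 CPM, and the other 8 libraries held at most 31.4 CPM. The Y-linked genes Ddx3y, Kdm5d, Uty and Eif2s3y summed to 8.13 and 0.0790 CPM in the same 2 libraries and to between 224 and 674 CPM in the other 8, so that sex-linked RNA differed within the small pre-B Mta2 KO group and between it and the small pre-B controls. Small pre-B control 3 held 0.953% histone gene counts and 1.401% Malat1 counts, where the other libraries held at most 0.0399% and 0.290%.

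The sorted populations were checked against marker lists. The 6 B lineage markers summed to 5070 to 7960 CPM in small pre-B Mta2 KO, 5411 to 7449 CPM in small pre-B control, 789.5 to 1101 CPM in pro-B Mta2 KO and 1179 to 1489 CPM in pro-B control libraries. The 7 plasmacytoid dendritic cell markers summed to 105 to 206 CPM in small pre-B Mta2 KO, 24.2 to 106 CPM in small pre-B control, 3268 to 3505 CPM in pro-B Mta2 KO and 3075 to 3237 CPM in pro-B control libraries. The 9 myeloid and granulocyte markers summed to 196 to 376 CPM in small pre-B Mta2 KO, 103 to 263 CPM in small pre-B control, 10149 to 15059 CPM in pro-B Mta2 KO and 6298 to 6485 CPM in pro-B control libraries. B lineage RNA was thus lower, and dendritic and myeloid RNA higher, in every library of the pro-B gate. The 9 natural killer and innate lymphoid markers summed to 135 to 305 CPM in small pre-B Mta2 KO, 13.7 to 174 CPM in small pre-B control, 561 to 875 CPM in pro-B Mta2 KO and 721 to 837 CPM in pro-B control libraries. The 9 T cell markers summed to 108 to 166 CPM in small pre-B Mta2 KO, 16.6 to 64.0 CPM in small pre-B control, 571 to 652 CPM in pro-B Mta2 KO and 463 to 520.3 CPM in pro-B control libraries. The 5 small pre-B stage markers summed to 4184 to 5326 CPM in small pre-B Mta2 KO, 4559 to 8670 CPM in small pre-B control, 384 to 546 CPM in pro-B Mta2 KO and 536 to 639 CPM in pro-B control libraries. The 5 pro-B stage markers summed to 844 to 1837 CPM in small pre-B Mta2 KO, 180.1 to 820.4 CPM in small pre-B control, 1029 to 1323 CPM in pro-B Mta2 KO and 896 to 1018 CPM in pro-B control libraries, so that small pre-B Mta2 KO and pro-B libraries overlapped on that list. No marker was at 0 counts over a whole group. Of the T cell sum, Cd4 made a mean of 301 of 611 CPM in pro-B Mta2 KO and 265 of 492 CPM in pro-B control libraries. Cd3e averaged 17.4 and 8.24 CPM there. The libraries labelled pro-B therefore held marker RNA of other cell types beside B lineage RNA, and the name pro-B is used here for the gate. The sums do not show how many cell types were present.

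**Figure D1:**
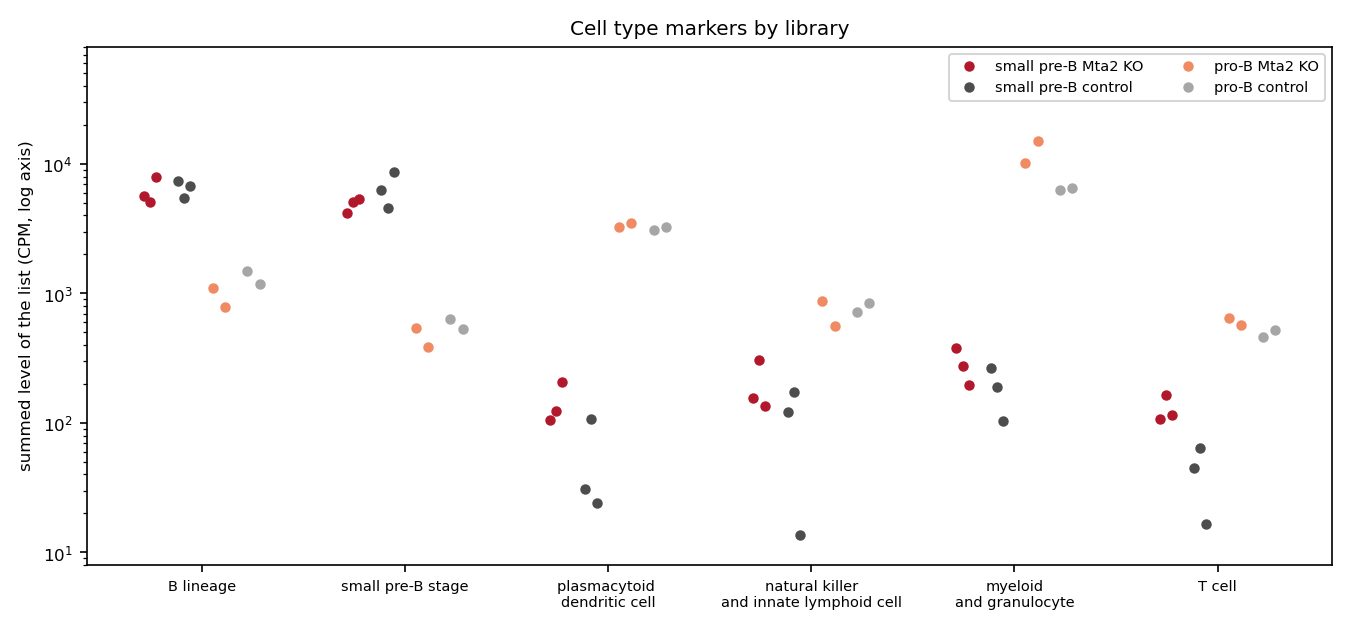
Summed level of each marker list (CPM, log axis) in every library, with 1 point per library and colours for the 4 groups. B lineage and small pre-B stage markers lie higher in small pre-B libraries, and plasmacytoid dendritic, natural killer, myeloid and T cell markers lie higher in all pro-B libraries.

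Between the gates, the E protein genes did not move together. Tcf3 and Tcf12 rose and Tcf4 fell in small pre-B relative to pro-B cells, in both genotypes, and of the Id genes Id2 fell and Id3 rose. In Mta2 KO cells 5 of the 6 genes passed edgeR's quasi-likelihood test at an adjusted p of 0.05, where 51.3% of all tested genes did, and in control cells 5 of 6 passed, where 55.4% of all tested genes did. The share among the 6 is therefore read against a background in which about as many genes as not differed between the gates. All 6 genes had libraries that did not overlap between the gates in both genotypes, as did 75.9% of tested genes in Mta2 KO and 73% in control libraries.

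Tcf3 encodes the E protein with the largest known role at the start of the B lineage. It had 1444, 1438 and 1558 CPM in small pre-B Mta2 KO libraries against 479.6 and 378 CPM in pro-B Mta2 KO libraries, and 1424, 1531 and 1254 CPM in small pre-B control libraries against 550.2 and 489 CPM in pro-B control libraries. Every small pre-B library lay above every pro-B library by more than the spread within either gate. The difference was 3.45-fold in Mta2 KO cells (log2 1.79, SE 0.15, adjusted p = 2.29e-05 by edgeR) and 2.70-fold in control cells (log2 1.43, SE 0.15, adjusted p = 6.88e-05). In bulk RNA a change in the share of cells of a type and a change in RNA per cell cannot be told apart. The B lineage marker sum, also higher in every small pre-B library, moved with Tcf3 between the gates. Among small pre-B control libraries it did not, with the lowest sum, 5411 CPM, in control 2, which had the most Tcf3. Within the other groups the order was the same. The part of B lineage content in the result was not tested.

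Tcf12, an E protein gene expressed in most tissues, had 496, 524 and 495 CPM in small pre-B Mta2 KO libraries against 239.8 and 228 CPM in pro-B Mta2 KO libraries, and 518, 514 and 822 CPM in small pre-B control libraries against 242 and 224 CPM in pro-B control libraries. Both genotypes had non-overlapping gates, and small pre-B control 3 stood above the other small pre-B libraries. Tcf12 rose by log2 1.11 (SE 0.20, adjusted p = 0.00156 by edgeR) in Mta2 KO cells and by log2 1.41 (SE 0.20, adjusted p = 0.000408) in control cells. Without small pre-B control 3, the control difference was log2 1.152.

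Tcf4 ran the other way, with 390.3, 407 and 413 CPM in small pre-B Mta2 KO libraries against 864 and 1009 CPM in pro-B Mta2 KO libraries, and 282, 322 and 294 CPM in small pre-B control libraries against 796 and 915 CPM in pro-B control libraries. All small pre-B libraries lay below all pro-B libraries. The log2 difference was -1.22 (SE 0.12, adjusted p = 4.42e-05 by edgeR) in Mta2 KO cells and -1.52 (SE 0.12, adjusted p = 1.68e-05) in control cells. The plasmacytoid dendritic cell markers moved with it, 7 of 7 lower by sign in small pre-B than pro-B cells of both genotypes. Of these 6 of 7 passed in Mta2 KO and 7 of 7 in control cells, where 51.3% and 55.4% of all tested genes passed, counting both directions. Siglech alone averaged 4.19 CPM in small pre-B Mta2 KO, 7.26 CPM in small pre-B control, 1818 CPM in pro-B Mta2 KO and 1621 CPM in pro-B control libraries. The part of these cells in the Tcf4 difference was not tested.

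Id2 had 9.63, 22.3 and 11.2 CPM in small pre-B Mta2 KO libraries against 63.6 and 66.4 CPM in pro-B Mta2 KO libraries, and 12.4, 17.6 and 11.1 CPM in small pre-B control libraries against 56.0 and 58.6 CPM in pro-B control libraries. The gates were far apart in both genotypes, and within small pre-B the highest library was replicate 2 of each genotype. Id2 fell by 2.17 on the log2 scale in Mta2 KO cells (SE 0.33, adjusted p = 0.00057 by edgeR) and by 2.06 in control cells (SE 0.33, adjusted p = 0.000716). Natural killer and innate lymphoid markers were lower in small pre-B cells too, 9 of 9 by sign in both genotypes, with 5 of 9 passing in Mta2 KO and 9 of 9 in control cells. Of all tested genes 51.3% passed in Mta2 KO and 55.4% in control cells, counting both directions. Replicate 2 of each small pre-B genotype, with the highest Id2, also had the highest sum of these markers, 305 CPM in the Mta2 KO and 174 CPM in the control library, against 155 and 135 CPM in the other Mta2 KO and 121 and 13.7 CPM in the other control libraries. That order was not kept throughout. Small pre-B Mta2 KO 1 had the higher marker sum but less Id2 than small pre-B Mta2 KO 3. Likewise pro-B Mta2 KO 1, with a marker sum of 875 CPM, had less Id2 than pro-B Mta2 KO 2, with 561 CPM. Control libraries kept the order in both gates. The part of natural killer and innate lymphoid cells in the Id2 difference was not tested.

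Id3 had 85.8, 64.7 and 80.4 CPM in small pre-B Mta2 KO libraries against 32.1 and 28.0 CPM in pro-B Mta2 KO libraries, and 34.4, 61.9 and 31.9 CPM in small pre-B control libraries against 24.7 and 27.5 CPM in pro-B control libraries. The gates did not overlap in either genotype, with a narrow gap in control cells, where small pre-B replicates 1 and 3 lay only a little above the pro-B libraries. Id3 rose by log2 1.36 in Mta2 KO cells (SE 0.28, adjusted p = 0.00315 by edgeR) and by log2 0.71 in control cells (SE 0.27, adjusted p = 0.0487). The control difference sat at the threshold and did not pass in 12 of 17 alternative settings, whose adjusted p ran from 0.013 to 0.208. Without small pre-B control 2, the library with the most Id3, it was log2 0.35 (adjusted p = 0.0907).

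The loss of that call also followed from leaving out either pro-B control library (adjusted p = 0.208 without replicate 1 and 0.132 without replicate 2), either pro-B Mta2 KO library (0.0701 and 0.07) or any 1 small pre-B Mta2 KO library (0.0628, 0.0572 and 0.065), all by edgeR. The Id3 difference in Mta2 KO cells stayed past the threshold in all 18 alternatives.

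Id1 was the least abundant of the genes, with 57, 49 and 38 counts in small pre-B Mta2 KO libraries, 24, 50 and 37 counts in small pre-B control libraries, 196 and 248 counts in pro-B Mta2 KO libraries and 126 and 138 counts in pro-B control libraries. This was 3.29, 1.94 and 1.77 CPM in small pre-B Mta2 KO against 3.57 and 4.92 CPM in pro-B Mta2 KO libraries, and 1.34, 2.01 and 1.05 CPM in small pre-B control against 2.41 and 2.48 CPM in pro-B control libraries. All small pre-B values lay below the pro-B values of their genotype, though the pro-B KO and small pre-B KO libraries nearly met. The log2 difference was -0.87 in Mta2 KO cells (SE 0.37, adjusted p = 0.0791 by edgeR) and -0.74 in control cells (SE 0.38, adjusted p = 0.1247), and neither passed. The Mta2 KO difference passed with small pre-B control 3 left out (adjusted p = 0.0455), with small pre-B Mta2 KO 1 left out (log2 -1.19, adjusted p = 0.0325), and with DESeq2 and limma-voom.

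**Figure D2:**
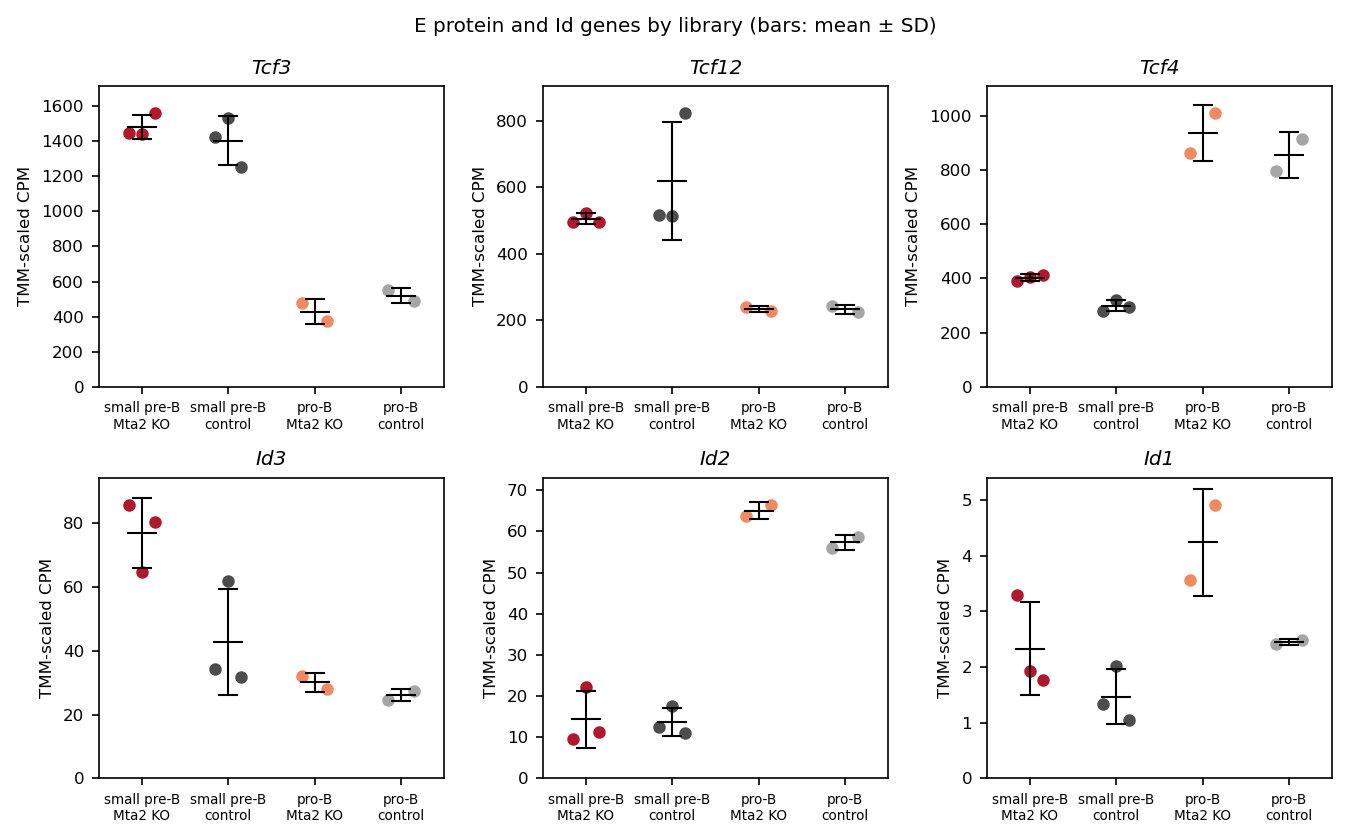
Level of each of the 6 genes (CPM, linear axes starting at 0) in every library, by group, with points for libraries and lines for the group mean ± SD. Tcf3, Tcf12 and Id3 lie higher and Tcf4, Id1 and Id2 lie lower in small pre-B than in pro-B libraries of the same genotype.

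Compared per length of exon, so that genes can be set side by side, Tcf3 was the most abundant of the 6 in small pre-B cells, at 417 ± 19.1 CPM per kilobase in Mta2 KO and 396 ± 39.3 in control libraries (SD, n = 3 each). The order in small pre-B Mta2 KO libraries continued with Tcf12 at 99.7 ± 3.21, Id3 at 80.8 ± 11.5, Tcf4 at 52.5 ± 1.51, Id2 at 11.3 ± 5.42 and Id1 at 2.56 ± 0.913 CPM per kilobase. In small pre-B control libraries it was Tcf12 at 122 ± 34.9, Id3 at 44.9 ± 17.5, Tcf4 at 39.0 ± 2.70, Id2 at 10.8 ± 2.72 and Id1 at 1.61 ± 0.543, where Id3 and Tcf4 were closer than the spread of Id3. The levels of Tcf3, Tcf12, Id2 and Id1 stood apart from their neighbours by more than 1 SD of either gene in both genotypes.

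In the pro-B gate Tcf3 and Tcf4 were level in Mta2 KO cells and Tcf3 was the higher in control cells. Tcf4 had 122 ± 13.4 and Tcf3 121 ± 20.3 CPM per kilobase in pro-B Mta2 KO libraries, and Tcf4 had 111 ± 11.0 and Tcf3 147 ± 12.1 in pro-B control libraries (SD, n = 2 each). Next came Id2 at 51.1 ± 1.56 in Mta2 KO and 45.1 ± 1.46 in control libraries, and Tcf12 at 46.2 ± 1.61 in Mta2 KO and 46.0 ± 2.49 in control libraries. In control libraries Id2 and Tcf12 did not differ beyond their spread. Id3 followed at 31.5 ± 3.08 in Mta2 KO and 27.4 ± 2.04 in control libraries, and Id1 was last at 4.66 ± 1.05 in Mta2 KO and 2.68 ± 0.0587 in control libraries.

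The make-up of each family differed between the gates accordingly. Of the summed E protein level per kilobase, Tcf3 made 73.2% ± 1.10 in small pre-B Mta2 KO, 71.0% ± 6.29 in small pre-B control, 41.7% ± 5.80 in pro-B Mta2 KO and 48.2% ± 3.41 in pro-B control libraries. Tcf4 made 9.22% ± 0.176 in small pre-B Mta2 KO, 6.996% ± 0.265 in small pre-B control, 42.3% ± 5.89 in pro-B Mta2 KO and 36.7% ± 4.05 in pro-B control libraries. Tcf3 was thus the main E protein transcript of small pre-B cells, while in the pro-B gate Tcf3 and Tcf4 each made 33.8% to 50.6% of the sum. Tcf12 made 17.5% ± 0.937 in small pre-B Mta2 KO, 22.0% ± 6.39 in small pre-B control, 16.0% ± 0.0835 in pro-B Mta2 KO and 15.1% ± 0.638 in pro-B control libraries.

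Of the summed Id level, Id3 made 85.1% ± 6.51 in small pre-B Mta2 KO, 77.9% ± 2.01 in small pre-B control, 36.1% ± 3.33 in pro-B Mta2 KO and 36.4% ± 0.995 in pro-B control libraries, and Id2 made 12.2% ± 6.79 in small pre-B Mta2 KO, 19.3% ± 1.89 in small pre-B control, 58.6% ± 2.10 in pro-B Mta2 KO and 60.03% ± 0.904 in pro-B control libraries. The leading Id transcript was Id3 in small pre-B and Id2 in the pro-B gate, in every library. These shares describe RNA and were not tested, since they are made from the levels already compared.

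The ratio of summed E protein to summed Id level per kilobase was 5.49, 6.42 and 6.21 in small pre-B Mta2 KO libraries, 11.4, 7.09 and 12.8 in small pre-B control, 3.37 and 3.25 in pro-B Mta2 KO and 4.22 and 3.88 in pro-B control libraries. Within each gate every Mta2 KO library lay below every control library, with 6.42 and 7.09 the closest in small pre-B cells. Of single tested genes, 25% in small pre-B and 55.5% in pro-B cells did not overlap between genotypes, in either direction. Id3, which made most of the Id sum in small pre-B cells, did not pass there by edgeR. The E protein sums were close, at 569 ± 18.7 CPM per kilobase in small pre-B Mta2 KO and 557 ± 17.4 in small pre-B control libraries, and 289 ± 8.56 in pro-B Mta2 KO and 304 ± 3.66 in pro-B control libraries. The Id sums were 94.6 ± 6.85 in small pre-B Mta2 KO and 57.2 ± 20.7 in small pre-B control libraries, and 87.3 ± 0.468 in pro-B Mta2 KO and 75.1 ± 3.56 in pro-B control libraries. Since the members were chosen with earlier results of these data known, the ratio is given as a description with no test.

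**Figure D3:**
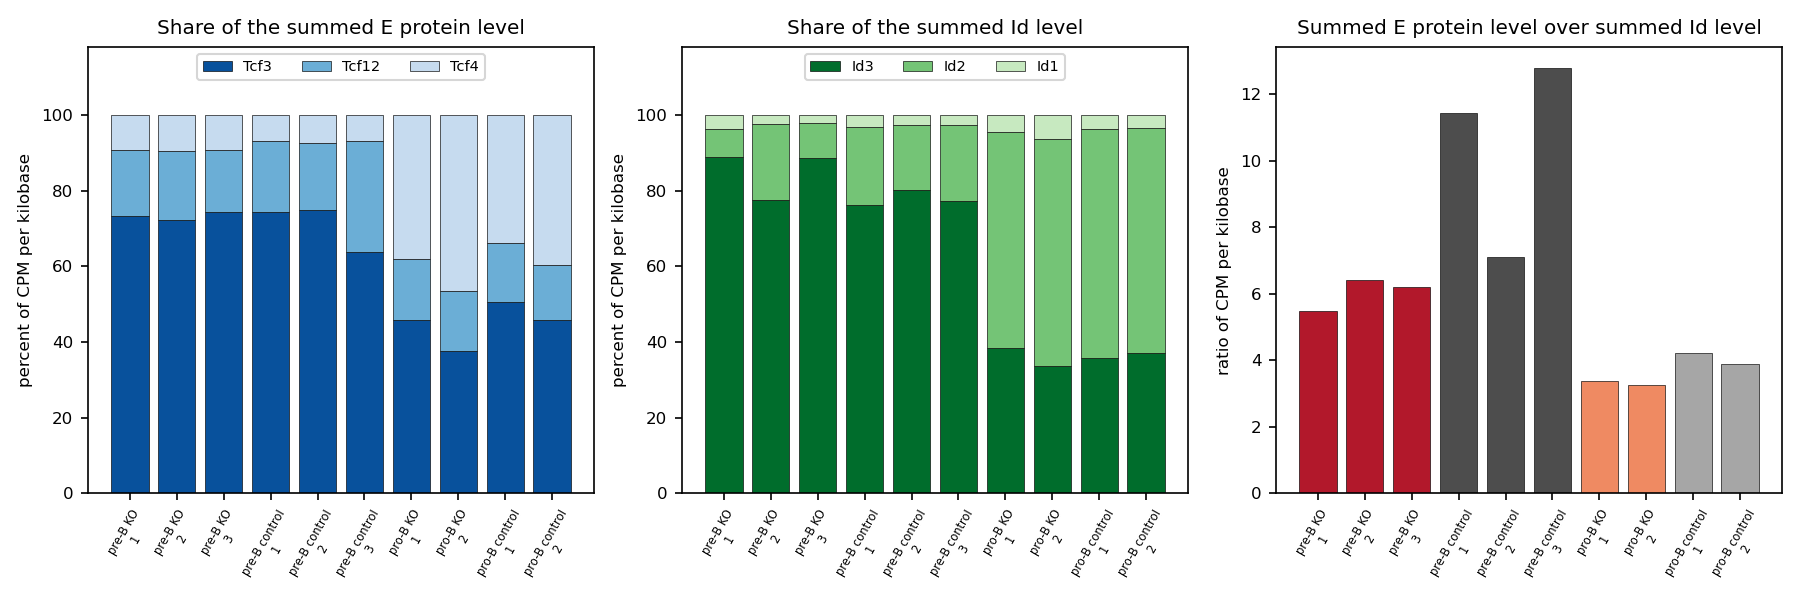
Share of each E protein gene in the summed E protein level and of each Id gene in the summed Id level (percent, CPM per kilobase), and the ratio of the 2 sums, by library, with small pre-B libraries marked pre-B. Tcf3 and Id3 lead in small pre-B libraries, Id2 leads the Id genes in pro-B libraries, and the ratio runs between 3.25 in a pro-B Mta2 KO library and 12.8 in a small pre-B control library.

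Loss of Mta2 in small pre-B cells was addressed next. Tcf4 and Id3 had the lowest p of the 6 genes and were higher in all 3 Mta2 KO libraries than in any control library, yet none of the 6 passed edgeR's quasi-likelihood test over all genes, which called 3.02% of tested genes in this comparison. At an unadjusted p below 0.05 edgeR had 2 of the 6, Tcf4 and Id3, where 24.7% of tested genes were. DESeq2 called both and limma-voom called Tcf4. Over all genes DESeq2 called 1869 of the 14161 tested here, against 428 by edgeR, so its calls stand against a larger background. Libraries that did not overlap between genotypes were found for 25% of tested genes.

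Tcf4 averaged 403 ± 11.6 CPM in small pre-B Mta2 KO and 299 ± 20.7 CPM in small pre-B control libraries (SD, n = 3 each), with the lowest Mta2 KO library at 390.3 CPM and the highest control at 322 CPM. The difference was 1.35-fold (log2 0.43, SE 0.11, 95% interval 0.19 to 0.67, adjusted p = 0.0619 by edgeR). Without small pre-B control 2 it passed, at log2 0.48 (adjusted p = 0.0397), and over all 19 alternatives the adjusted p lay between 0.00413 and 0.24. The plasmacytoid dendritic cell markers summed to 105, 124 and 206 CPM in small pre-B Mta2 KO and 30.7, 106 and 24.2 CPM in small pre-B control libraries, and 0 of the 7 passed here. By sign 3 of the 7 were higher and 4 lower in Mta2 KO, with a median log2 difference of -0.57. Most of the sum was Cox6a2, at a mean of 117 of 145 CPM in small pre-B Mta2 KO and 30.5 of 53.8 CPM in small pre-B control libraries. Markers of the pro-B stage were higher in Mta2 KO in 5 of 5 by sign, and 1 passed, the receptor gene Kit, with 81.9, 50.9 and 36.3 CPM in small pre-B Mta2 KO against 14.9, 10.9 and 3.64 CPM in small pre-B control libraries (log2 2.54, adjusted p = 0.0317 by edgeR). Of the 5 small pre-B stage markers, 4 were lower and 1 higher in Mta2 KO by sign, and 1 passed, as lower. This was Il2ra, which encodes CD25, with 144, 120.4 and 151 CPM in small pre-B Mta2 KO against 437, 263 and 369 CPM in small pre-B control libraries (log2 -1.36, adjusted p = 0.0259 by edgeR). Of all tested genes 3.02% passed in this comparison. The part of these markers, and of the T cell markers given with Id3, in the Tcf4 difference was not tested.

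Id3 averaged 77.0 ± 11.0 CPM in small pre-B Mta2 KO and 42.8 ± 16.7 CPM in small pre-B control libraries. The highest control, replicate 2 at 61.9 CPM, lay close under the lowest Mta2 KO library, replicate 2 at 64.7 CPM. The difference was 1.80-fold (log2 0.85, SE 0.24, 95% interval 0.31 to 1.39, adjusted p = 0.0843 by edgeR). Without small pre-B control 2 it was log2 1.21 (adjusted p = 0.00329), and over all 19 alternatives the adjusted p lay between 0.00329 and 0.26. T cell markers moved with genotype in the same libraries, with 9 of 9 higher in Mta2 KO by sign. Of these 5 passed, namely Cd3e, Cd3d, Cd3g, Bcl11b and Lat, where 3.02% of all tested genes passed. The T cell markers summed to 108, 166 and 115 CPM in Mta2 KO against 45.1, 64.0 and 16.6 CPM in control libraries. Most of that sum was Lck, at a mean of 72.0 of 130 CPM in Mta2 KO and 31.6 of 41.9 CPM in control libraries. By sign, myeloid and granulocyte markers were also higher in Mta2 KO in 9 of 9. Natural killer and innate lymphoid markers were higher in 8 of 9 and lower in 1, and 0 passed in either list. The part of these markers in the Id3 difference, and that of Kit and Il2ra, was not tested. With the 2 Mta2 KO libraries that hold Xist left out, the log2 difference was 0.92 for Id3 (adjusted p = 0.26) and 0.47 for Tcf4 (adjusted p = 0.24).

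The other 4 genes overlapped between the small pre-B genotypes. Tcf3 averaged 1480.0 ± 67.7 CPM in Mta2 KO and 1403 ± 140 CPM in control libraries, and the 95% interval of its log2 difference ran from -0.21 to 0.36, which leaves out a change of 1.5-fold in either direction. Tcf12 averaged 505 ± 16.3 CPM in Mta2 KO and 618 ± 177 CPM in control libraries, a log2 difference of -0.29 (adjusted p = 0.319 by edgeR) that was -0.03 without small pre-B control 3. Id2 averaged 14.4 ± 6.90 CPM in Mta2 KO and 13.7 ± 3.47 CPM in control libraries (log2 0.07, 95% interval -0.60 to 0.75), and the sign turned to -0.39 without Mta2 KO 2 and to -0.06 without control 3. Id1 averaged 2.33 ± 0.832 CPM in Mta2 KO and 1.47 ± 0.494 CPM in control libraries (log2 0.66, 95% interval -0.14 to 1.47, adjusted p = 0.276), and was log2 0.28 without the 2 Mta2 KO libraries that hold Xist.

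In the pro-B gate none of the 6 genes passed for Mta2 KO against control, in a comparison where edgeR called 0.0353% of tested genes. At an unadjusted p below 0.05, where edgeR had 6.45% of tested genes, edgeR and DESeq2 had 0 of the 6 and limma-voom had 1, Id1, and after adjustment DESeq2 and limma-voom called 0. Id1 averaged 4.24 ± 0.956 CPM in pro-B Mta2 KO and 2.44 ± 0.0535 CPM in pro-B control libraries (SD, n = 2 each; log2 0.79, SE 0.41, 95% interval -0.13 to 1.72, adjusted p = 0.906 by edgeR). Tcf3 averaged 429 ± 72.2 CPM in Mta2 KO and 520 ± 43.0 CPM in control libraries, with all Mta2 KO below all control libraries (log2 -0.28, SE 0.16, 95% interval -0.63 to 0.07, adjusted p = 0.95). In this comparison 55.5% of tested genes had libraries that did not overlap between genotypes, in one direction or the other. The myeloid markers were higher in both Mta2 KO than in both control libraries for 9 of 9 genes, and the B lineage markers lower for 6 of 6, with none past the threshold. Their part in these values was not tested.

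Id2 averaged 65.0 ± 1.99 CPM in pro-B Mta2 KO and 57.3 ± 1.85 CPM in pro-B control libraries (log2 0.18, 95% interval -0.62 to 0.98), and Id3 averaged 30.1 ± 2.93 CPM in Mta2 KO and 26.1 ± 1.95 CPM in control libraries (log2 0.20, 95% interval -0.45 to 0.86). Both had Mta2 KO libraries above control libraries, which was so in one direction or the other for 55.5% of tested genes. Tcf4 averaged 936 ± 103 CPM in Mta2 KO and 856 ± 84.2 CPM in control libraries, and Tcf12 averaged 234 ± 8.15 CPM in Mta2 KO and 233 ± 12.6 CPM in control libraries. Both overlapped between genotypes.

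Whether the effect of Mta2 loss differed between the gates was tested as the difference of the 2 log2 effects, which is also the difference of the 2 stage effects. It was 0.64 for Id3 (95% interval -0.20 to 1.49), 0.36 for Tcf3 (-0.10 to 0.81), 0.30 for Tcf4 (-0.08 to 0.68), -0.30 for Tcf12 (-0.91 to 0.31), -0.11 for Id2 (-1.16 to 0.94) and -0.13 for Id1 (-1.35 to 1.09). None of the 6 passed by edgeR, where 0% of all tested genes did, none had an unadjusted p below 0.05, where 6.4% of tested genes did, and DESeq2 and limma-voom called none. The intervals of Id1 and Id2 allow differences of more than 1.5-fold either way.

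**Figure D4:**
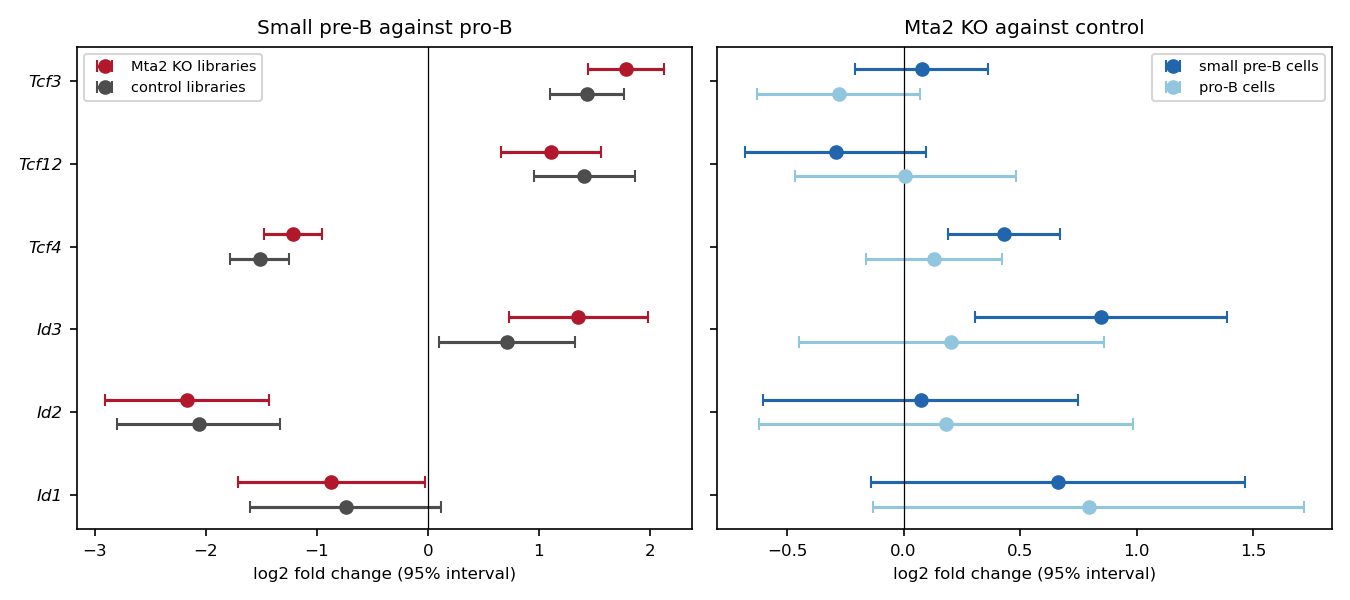
Log2 difference with its 95% interval for each of the 6 genes, for Mta2 KO against control in each gate and for small pre-B against pro-B in each genotype. Stage intervals of Tcf3, Tcf4, Tcf12, Id2 and Id3 leave out 0 in both genotypes, and of the Mta2 KO intervals only those of Tcf4 and Id3 in small pre-B cells leave out 0, with neither passing after adjustment over all genes.

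Known targets of E proteins in early B cells rose with the stage. Of 13 listed targets, 11 passed as higher and 0 as lower in small pre-B than pro-B cells in either genotype. Of all tested genes 51.3% were called in Mta2 KO and 55.4% in control cells, counting both directions. The median log2 difference of the targets was 2.38 in Mta2 KO and 1.98 in control cells, and the median over all tested genes was -0.02 in both. Of the 13, 10 are also in a B cell marker list, so the list is not separate from the B lineage content of the sort. Pou2af1, the coactivator OCA-B, rose by log2 3.05 in Mta2 KO and 2.15 in control cells, and Foxo1, a factor that activates the recombinase genes, rose by log2 2.13 in Mta2 KO and 1.95 in control cells. Rag1, which cuts the antigen receptor genes, rose by 3.95 in Mta2 KO and 4.27 in control cells. Pax5, which holds cells in the B lineage, rose by 2.96 in Mta2 KO and 2.27 in control cells, and Cd79b, a chain of the B cell receptor, by 2.83 in Mta2 KO and 2.79 in control cells. The 2 targets that did not pass were the surrogate light chain genes Igll1 and Vpreb1, with log2 differences of 0.62 and 1.09 in Mta2 KO cells and -0.83 and -0.24 in control cells.

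For Mta2 KO against control, 0 of the 13 targets passed by edgeR in either gate, with 2 at an unadjusted p below 0.05 in each, Igll1 and Vpreb1 in small pre-B and Pou2af1 and Vpreb3 in pro-B cells. Over all tested genes 24.7% had such a p in small pre-B and 6.45% in pro-B cells, which is the background for the lists that follow too. Igll1 had 462, 221 and 254 CPM in small pre-B Mta2 KO and 194, 137 and 57.5 CPM in small pre-B control libraries (log2 1.27, adjusted p = 0.113 by edgeR), and Vpreb1 differed by log2 1.29 (adjusted p = 0.171). DESeq2 called Igll1 in small pre-B cells and no target in pro-B cells, and limma-voom called none in either. In pro-B cells Vpreb3 had a log2 difference of -0.72 (adjusted p = 0.619 by edgeR) and Pou2af1 of -0.51 (adjusted p = 0.755), and the median of the list was -0.34 against 0.13 in small pre-B cells.

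Other helix-loop-helix partners were mostly silent, with 4 of 16 listed genes past the count filter. Bhlha15, a factor of secretory cells, had a log2 difference of -2.11 between small pre-B and pro-B Mta2 KO cells and -1.89 between the control cells, and Tal1, a factor of stem and erythroid cells, of -2.91 in Mta2 KO and -3.30 in control cells, all past the threshold. Small pre-B control libraries held 0 to 1.28 CPM of Tal1, 36 counts in all. The lowest was under the floor, so the Tal1 fold in control cells is rough. Tal1 no longer passed without either pro-B control library in either genotype (adjusted p = 0.0599 and 0.0613 in Mta2 KO, 0.0574 and 0.103 in control cells, by edgeR), nor, in Mta2 KO cells, without either pro-B Mta2 KO library (0.154 and 0.0789) or small pre-B Mta2 KO 2 or 3 (0.103 and 0.102). Neither gate had a partner gene that passed for Mta2 KO by edgeR. Lyl1, a relative of Tal1, differed by log2 0.48 in small pre-B (adjusted p = 0.0835 by edgeR, called by DESeq2, and the only one of the 4 at an unadjusted p below 0.05) and by 0.33 in pro-B cells (adjusted p = 0.88), and Scx, a tendon factor, by -0.89 in small pre-B and 0.37 in pro-B cells.

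Of the cofactors that E proteins work with, 9 of 10 were tested. In small pre-B against pro-B cells 4 passed as higher and 1 as lower in Mta2 KO, and 5 as higher and 2 as lower in control cells. The 5 of 9 called in Mta2 KO cells lie near the 51.3% of all tested genes called there. The 7 of 9 called in control cells lie above the 55.4% of all tested genes, but with 9 genes neither count is read as a result about the list. Lmo2, a bridging protein of stem and progenitor cells, fell by 2.59 on the log2 scale in Mta2 KO and by 2.96 in control cells, and its relative Lmo4 rose by 1.73 in Mta2 KO and by 1.5 in control cells. The acetyltransferase gene Kat2b rose by 0.53 in Mta2 KO and 0.82 in control cells, and Ep300, another acetyltransferase gene, by 0.34 in Mta2 KO and 0.44 in control cells. The corepressor gene Cbfa2t2 rose by 0.52 in Mta2 KO and 0.57 in control cells, and Kat2a had a log2 difference of -0.90 in control cells that passed. The number higher in Mta2 KO cells was 2 without either pro-B Mta2 KO library and 1 without the Xist-holding libraries, and the number higher in control cells was 3 without either pro-B control library. Single calls lost in Mta2 KO cells were Kat2b without pro-B Mta2 KO 1 (adjusted p = 0.13 by edgeR), Cbfa2t2 without pro-B Mta2 KO 2 (0.0755), and Ep300 without any pro-B library or small pre-B Mta2 KO 1 or 2 (0.0589 to 0.227). Ep300 was also lost in control cells without either pro-B control library, and Cbfa2t2 there without pro-B control 2 (0.0522). None passed for Mta2 KO by edgeR, with Kat2a (log2 0.55, adjusted p = 0.098) and Crebbp (-0.60, adjusted p = 0.189) at an unadjusted p below 0.05 in small pre-B cells, Kat2a called by DESeq2 alone, and none at that p in pro-B cells, where Cbfa2t2 (-0.17) and Kat2b (0.13) had the smallest p.

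Receptors and factors that feed into Id genes, those of the BMP, TGF-beta and EGR pathways, went in both directions. Of 17 tested of 19 listed, 4 passed as higher and 4 as lower in small pre-B than pro-B Mta2 KO cells, and 6 as higher and 5 as lower in control cells. These counts lie near the 51.3% and 55.4% of all tested genes called in Mta2 KO and in control cells. Smad5, which carries BMP signals, rose by log2 1.30 in both genotypes, Smad4, the shared partner of receptor-activated Smads, by 0.64 in Mta2 KO and 0.76 in control cells, and Tgfbr2, a TGF-beta receptor, by 1.06 in Mta2 KO and 1.45 in control cells. The BMP receptor gene Bmpr1a was lower in both genotypes, with 7 counts over the 3 small pre-B Mta2 KO libraries against 226 over the 2 pro-B Mta2 KO libraries, and 9 over the 3 small pre-B control libraries against 251 over the 2 pro-B control libraries. Its small pre-B level was too near the floor of 3 counts a library for a fold. The related Acvr1 had a log2 difference of -1.64 in Mta2 KO and -3.82 in control cells, both past the threshold. Egr1, which is induced by antigen receptor signals, rose by 0.85 in Mta2 KO cells and had a log2 difference of 0.02 in control cells. In Mta2 KO cells Bmpr2, a second BMP receptor gene, fell by 0.99, and in control cells Smad1 fell by 1.57 and Smad3, which carries TGF-beta signals, rose by 0.58. Smad6, an inhibitor of BMP signals, was called lower in both genotypes, but with at most 2 counts in any small pre-B library, 5 over the Mta2 KO and 3 over the control libraries, it lay under the floor there and no fold is given. Pro-B libraries held 62 Smad6 counts over the Mta2 KO and 28 over the control libraries. Acvr1 and Egr1 in Mta2 KO cells no longer passed without either pro-B Mta2 KO library or small pre-B Mta2 KO 2 or 3 (adjusted p = 0.0647 to 0.154 by edgeR), nor Bmpr2 without either pro-B Mta2 KO library (0.0502 and 0.0722). In control cells Smad3 no longer passed without either pro-B control library (0.144 and 0.0699). The Smad6 call was lost without small pre-B Mta2 KO 2 in Mta2 KO cells, and without pro-B control 2 or small pre-B control 1 or 2 in control cells. Over all alternatives the counts ran from 3 to 7 higher and 1 to 5 lower in Mta2 KO cells and from 3 to 7 higher and 3 to 6 lower in control cells.

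By edgeR and by limma-voom, Smad1 was the 1 gene of the 4 lists called in small pre-B Mta2 KO against control cells. It was 1 of 17 tested in its own list, and edgeR called 3.02% of all tested genes. DESeq2 also called Igll1, Lyl1, Kat2a, Acvr1 and Egr1, where it called 1869 of 14161 tested genes. With such backgrounds neither count is read as a result about the lists. Smad1, a transducer of BMP signals that activate Id genes, had 17.5, 16.8 and 14.8 CPM in small pre-B Mta2 KO against 5.52, 9.18 and 5.51 CPM in small pre-B control libraries, and 20.9 and 22.4 CPM in pro-B Mta2 KO against 19.5 and 20.6 CPM in pro-B control libraries. The small pre-B genotypes did not overlap, and the Mta2 KO libraries lay between the small pre-B controls and the pro-B libraries. The difference was log2 1.28 (SE 0.21, adjusted p = 0.0254 by edgeR) in small pre-B and 0.11 in pro-B cells, and the difference between these effects did not pass (log2 1.17, adjusted p = 0.688 by edgeR). The call was lost, at adjusted p between 0.0582 and 0.0905, when any pro-B library, small pre-B control 1 or small pre-B Mta2 KO 1 or 2 was left out, and at 0.129 and 0.19 with the small pre-B groups fitted alone and without the Xist-holding libraries. The next 2 by p were Acvr1 (log2 2.41, adjusted p = 0.0532) and Egr1 (log2 0.91, adjusted p = 0.0708), both called by DESeq2. In pro-B cells none passed by edgeR, DESeq2 or limma-voom and none had an unadjusted p below 0.05, with Smad6 (log2 1.20) and Tgfbr1 (0.25) first.

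The tested genes whose profile over the 10 libraries was nearest to each member were found by the root mean square difference of log2 CPM, each gene centred on its own mean. Nearest to Tcf3 were Spib and Dpp4 (both 0.11), and Spib averaged 2634 CPM in small pre-B Mta2 KO, 2577 in small pre-B control, 801 in pro-B Mta2 KO and 933 CPM in pro-B control libraries. Nearest to Tcf4 were Klf16 (0.12) and Slc25a45 (0.13), to Tcf12 Top2b (0.06) and Tgfbr2 (0.07), to Id1 Fbxo10 (0.16) and Sh2d5 (0.25), and to Id2 Trim30b (0.16) and Fgl2 (0.23). Nearest to Id3 were Rcor2 and Krba1 (both 0.13), with Rcor2 at 61.7 CPM in small pre-B Mta2 KO, 35.8 in small pre-B control, 22.4 in pro-B Mta2 KO and 20.2 CPM in pro-B control libraries. The libraries share their gate and depth, so likeness of profile here is a description.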

How the data were processed

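The authors deposited 1 file per library, with raw counts of reads for each gene symbol. Per the file headers the counts were made with featureCounts 1.4.3-p1 over exons of an mm10 annotation, with no strand option, though the kit in the labels keeps strand. Per the submitters' processing notes CASAVA 1.82, STAR and genome mm9 were used, and positions here follow the mm10 coordinates in the files. One small pre-B control file (replicate 3) carries the number 919 in its header and 931 in its title.

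Genes were filtered with filterByExpr (minimum count 10, minimum total 15), which left 14161 of 23420. Libraries were scaled by TMM, CPM were computed from the counts, and 1 edgeR 4.0.16 model (R 4.3.3) with a mean per group was fitted to all 10 libraries. The quasi-likelihood F-test gave Mta2 KO against control in each cell type, how these 2 effects differ, and the stage difference (small pre-B over pro-B) in each genotype. Benjamini-Hochberg adjustment ran over all 14161 genes, with a threshold of 0.05. Fitted log2 differences use edgeR's default prior count, and profiles of nearest genes a prior count of 2. Levels per kilobase use the exon length in the files. The test was also run on simulated counts for the Mta2 KO comparisons, drawn independently with the spread estimated from these libraries. The simulation held no shared batches and no outlying library, so it does not cover those. Total counts were 17805507 to 52127004 per library, and 3 counts were taken as the floor. Spreads are those between libraries. Alternatives were other scalings, DESeq2 1.42.0, limma-voom (3.58.1), other filters, fits on the compared groups alone, a replicate block and leaving out libraries. The choices to leave out the libraries that hold Xist and to leave out libraries from the ratio of E to Id levels were made after seeing the data.

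Named genes are the 6 members, from each list up to 4 genes with the smallest p in each direction among those that passed or otherwise the 2 with the smallest p, and the 2 genes with the nearest profile for each member (predicted, Rik and small RNA genes left out). The members, gene lists and marker lists were chosen with earlier results of these data known. Genes given beyond that rule, among them the markers Siglech, Kit, Il2ra, Cd3e, Cd3d, Cd3g, Bcl11b and Lat, were picked after their values were seen. Promoter windows came from a RefSeq table, which matched 4 of the 6 members.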

Additional observations from a re-analysis of the deposited data

How the results depend on the processing

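The number of the 6 genes called for Mta2 KO in small pre-B cells, 0 by edgeR, was 2 by DESeq2, 1 by limma-voom and 0 to 2 with single libraries left out (2 without small pre-B control 2); it was 0 in all other settings. For Mta2 KO in pro-B cells and for the difference of effects it was 0 in every setting, and for the stage difference it was 5 or 6 in Mta2 KO and 4 or 5 in control cells. The calls of Tcf3, Tcf4, Tcf12 and Id2 between the gates were kept in all 18 alternatives in Mta2 KO and all 17 in control cells. Without division by length the ratio of E protein to Id level was 25.6 in small pre-B Mta2 KO, 43.0 in small pre-B control, 16.1 in pro-B Mta2 KO and 18.7 in pro-B control libraries.

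Signs turned only for values that had not passed: Tcf12 in pro-B cells (-0.0058 with upper-quartile scaling, -0.00021 with no count filter, -0.046 without pro-B control 2 and -0.027 without pro-B Mta2 KO 1, so -0.046 to 0.064 with single libraries left out), Id2 in small pre-B cells (-0.06 without control 3, -0.39 without Mta2 KO 2, so -0.39 to 0.30 with single libraries left out, and -0.29 without the libraries that hold Xist), and the difference of effects for Id1 (-0.45 to 0.17 with single libraries left out, above 0 without pro-B Mta2 KO 2 and without control 2 or Mta2 KO 3 of small pre-B) and Id2 (-0.58 to 0.12, above 0 without small pre-B control 2, small pre-B Mta2 KO 1 or small pre-B Mta2 KO 3). The cause was not tested.

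Over all genes, Mta2 KO calls in pro-B cells were 5 by edgeR, 182 by DESeq2, 148 by limma-voom, 8 with either other count filter, 856 with these groups fitted alone and 0 to 25 with single libraries left out. In small pre-B cells they were 428 by edgeR, 1869 by DESeq2, 0 with these groups fitted alone or without the libraries that hold Xist, and 1 to 1667 with single libraries left out (1 without control 1, 1667 without control 2). Stage calls in Mta2 KO cells were 7261, against 4672 without pro-B Mta2 KO 2. For the difference of effects, 0 by edgeR stood against 58 by DESeq2 and 0 to 40 with single libraries left out. Other scalings moved the median of all genes by at most 0.038.

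Library numbers in the labels are shared by Mta2 KO and control. The correlation of deviations for same-numbered libraries was 0.0147 in both pro-B pairs and 0.102, 0.155 and 0.0449 in the small pre-B pairs, so the numbers were not taken to pair samples, though each of the 3 small pre-B Mta2 KO libraries correlated best with its own number, a hint from the data and not the design. With 2 libraries a group, the pro-B pairs mirror each other and count as 1 outcome. With the replicate block 0 of the 6 genes were called in any Mta2 KO comparison, and 0 genes in pro-B and 153 in small pre-B cells over all genes. No paired analysis was possible because the cell types share no number for the stage comparisons.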
